A study of Mus musculus with 8 samples.

Results

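The genes described here are 35 solute carrier genes, chosen as a named list of the nutrient and ion transporters of enterocytes. They were followed in RNA of sorted mouse intestinal epithelium, and all 35 are among the 23366 gene symbols of the deposited count tables. Grouped by substrate, 3 carry sugars, 13 amino acids and peptides, 3 bile acids, 7 ions and metals, 4 vitamins and nucleosides and 5 fatty and organic acids.

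The animals were male littermates 6 weeks old. Sox4cKO mice carried floxed Sox4 alleles (Sox4fl/fl) with 1 copy of vilCre, and control mice carried the floxed alleles without Cre. The Cre is driven by the villin promoter and, per the labels, recombines in the gut epithelium from before birth. CD326+ cells were sorted by CD44 into a villus-enriched gate without it (CD44minus) and a crypt-enriched gate with it (CD44plus), 50000 cells for each library. There were 2 animals of each genotype and both gates came from each animal, which makes 8 libraries in 4 groups. The stretch of intestine that was collected is not given in the sources used here. Values of a group are given below in the order replicate 1 and replicate 2.

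Enterocytes take up nutrients across an apical brush border and release them to the blood across the basolateral membrane, and most of this traffic runs through solute carriers. Apical carriers are commonly driven by sodium or protons, while many basolateral carriers are exchangers or passive. Cells are born in the crypt and mature as they move up the villus, where absorption takes place. Other carriers of the list, such as the glutamine carrier Slc1a5 and the lactate carrier Slc16a1, also serve dividing cells.

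The promoters of 6 members are shown as examples and do not stand for the whole list. Slc3a1, Slc15a1, Slc51a, Slc10a2 and Slc26a3 had a positive CD44minus over CD44plus difference in both genotypes, and Slc16a1 a negative one. Slc3a1, Slc51a and Slc26a3 did not pass the test below in either genotype. Each line gives the 150 bases before the gene's start on its own strand, from RefSeq on GRCm38.p6, the patch release of mm10.
Slc3a1 (chr17:85028197-85028346, plus strand): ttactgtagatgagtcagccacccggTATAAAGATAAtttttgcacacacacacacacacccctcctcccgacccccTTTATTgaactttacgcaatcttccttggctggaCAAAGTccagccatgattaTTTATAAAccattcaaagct
Slc15a1 (chr14:121505255-121505404, minus strand): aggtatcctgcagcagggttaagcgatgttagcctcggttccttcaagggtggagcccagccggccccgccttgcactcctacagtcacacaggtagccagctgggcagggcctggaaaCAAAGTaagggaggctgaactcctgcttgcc
Slc51a (chr16:32487880-32488029, minus strand): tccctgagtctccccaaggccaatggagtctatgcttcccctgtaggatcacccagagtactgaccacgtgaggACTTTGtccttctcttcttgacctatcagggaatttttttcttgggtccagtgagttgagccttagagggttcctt
Slc10a2 (chr8:5105288-5105437, minus strand): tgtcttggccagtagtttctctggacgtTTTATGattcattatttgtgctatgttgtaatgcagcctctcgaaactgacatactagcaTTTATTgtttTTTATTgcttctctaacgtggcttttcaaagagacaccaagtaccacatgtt
Slc26a3 (chr12:31438069-31438218, plus strand): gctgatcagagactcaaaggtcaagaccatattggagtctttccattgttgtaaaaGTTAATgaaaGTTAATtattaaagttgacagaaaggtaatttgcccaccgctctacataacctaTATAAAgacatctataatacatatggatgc
Slc16a1 (chr3:104638514-104638663, plus strand): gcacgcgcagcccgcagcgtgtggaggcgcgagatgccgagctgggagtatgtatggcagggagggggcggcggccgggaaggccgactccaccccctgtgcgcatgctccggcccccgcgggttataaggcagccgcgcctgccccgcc

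Capitals mark letters matched on either strand by 4 motifs named for factor families of the gut epithelium. The HNF4 motif was CAAAGT and the HNF1 motif was GTTAAT. The motif searched for CDX factors was TTTATN, where N is any base. For the zinc finger factors Gata4 and Gata6 it was AGATAA, called GATA here. A GATA match can run on into a reverse CDX match, and the reverse CDX letters are also found in TATA boxes. The search covered windows of 300 bases that end 50 bases past the start, and 29 members had such a window. HNF4 matched in 7 of the 29 members (24.1%), against 16.1% of the 27025 genes with a window. HNF1 also matched in 7 members (24.1%), against 8.2% of those genes. CDX matched in 13 members (44.8%), against 43.8%, and GATA in 4 (13.8%), against 12.7%. The Slc16a1 window held 1 match, an HNF4 motif just after the start and so outside the bases shown. None of the 4 motifs matched in the windows of Slc2a5, Slc6a19, Slc51b, Slc34a2 and Slc22a4, which were higher in CD44minus in both genotypes. Matches were found in those of Slc2a2, Slc15a1, Slc6a20a and Slc46a1, also higher in both. A match is a string of letters and not a binding site.

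The libraries differed in depth and in background, which touches every value from the CD44minus gate. Gene counts were 1175251 and 6963345 in Sox4cKO CD44minus, 886194 and 2327002 in control CD44minus, and 6007554 to 13238050 in CD44plus. Receptor genes of smell and pheromone neurons served as blanks, and their reads per coding length, carried over to all genes, put background at 25.9 and 1.17% of gene counts in Sox4cKO CD44minus, at 22.8 and 8.57% in control CD44minus and at 0.43 to 2.25% in CD44plus. On the members, the median share of reads that this background would supply was 13.3 and 0.5% in Sox4cKO CD44minus, 9.2 and 2.9% in control CD44minus and 0.9 to 4.8% in CD44plus. Sox4cKO CD44minus replicate 2 stands apart, since on the first principal component it lies among the CD44plus libraries. The libraries lie on that component nearly in the order of their background, whose part in it was not tested. Replicate 2 also had the least background of the 4 CD44minus libraries, the lowest Cd44 and the highest enterocyte marker sum, both given below. Sox4, the deleted gene, was at 1.98 and 0.272 CPM in Sox4cKO CD44minus, against 6.73 and 8.25 CPM in control CD44minus, and at 17.8 and 25.6 CPM in Sox4cKO CD44plus, against 128 and 120.1 CPM in control CD44plus. Its CD44minus values rest on 4 and 1 reads in Sox4cKO and 10 and 21 in control. Background in that gate was 0.823 to 3.08 reads per kilobase, so these Sox4 values may hold a large part of it. CPM is the counts-per-million value of a gene among gene counts, here scaled between libraries by the trimmed mean of M values (TMM). The sorting antigen Cd44 was at 5.72 to 27.2 CPM in the 4 CD44minus libraries and 203 to 326 CPM in the 4 CD44plus libraries, without overlap. The sum of 14 enterocyte markers was 14020 and 72910 CPM in Sox4cKO CD44minus, 17110 and 33450 CPM in control CD44minus and 2846 to 3719 CPM in CD44plus. That of 10 crypt stem and cycling markers was 372 to 541 CPM in CD44minus and 7140 to 9379 CPM in CD44plus. The sum of 4 Paneth cell markers, a crypt cell type, was highest in the villus-enriched gate too, with 4306 to 24370 CPM there and 2506 to 3421 CPM in CD44plus. Not all 4 followed the sum, since Mmp7 overlapped between the gates (74 to 310 CPM and 113 to 227 CPM). By the test given below, 0 of them passed in either genotype.

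Most of the 35 genes were read more in villus-enriched than in crypt-enriched cells, in both genotypes. Together they took 0.552 and 0.766% of gene counts in Sox4cKO CD44minus, against 0.141 and 0.112% in Sox4cKO CD44plus. In control they took 0.577 and 0.696% in CD44minus, against 0.125 and 0.107% in CD44plus. All 35 passed the filter on low counts. By edgeR's quasi-likelihood test with Benjamini-Hochberg adjustment over 20427 genes at a threshold of 0.05, 15 members were higher in Sox4cKO CD44minus than in Sox4cKO CD44plus and 0 were lower. Over all genes, 0.925% were called higher and 1.65% lower in that comparison. In control 9 members were higher in CD44minus than in CD44plus and 0 were lower, against 0.445% and 2.01% of all genes. All 9 are among the 15. Below, a gene passed or did not pass by this fit of all 8 libraries, unless another fit is named. The median log2 fold change of CD44minus over CD44plus over the members was 3.0 in Sox4cKO and 2.49 in control, beside 0.48 and 0.19 over all genes tested. RNA of sorted cells in bulk cannot tell more cells of a type from more RNA per cell. The enterocyte marker sum moved with this difference in every library, and its part in the result was not tested.

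**Figure D1:**
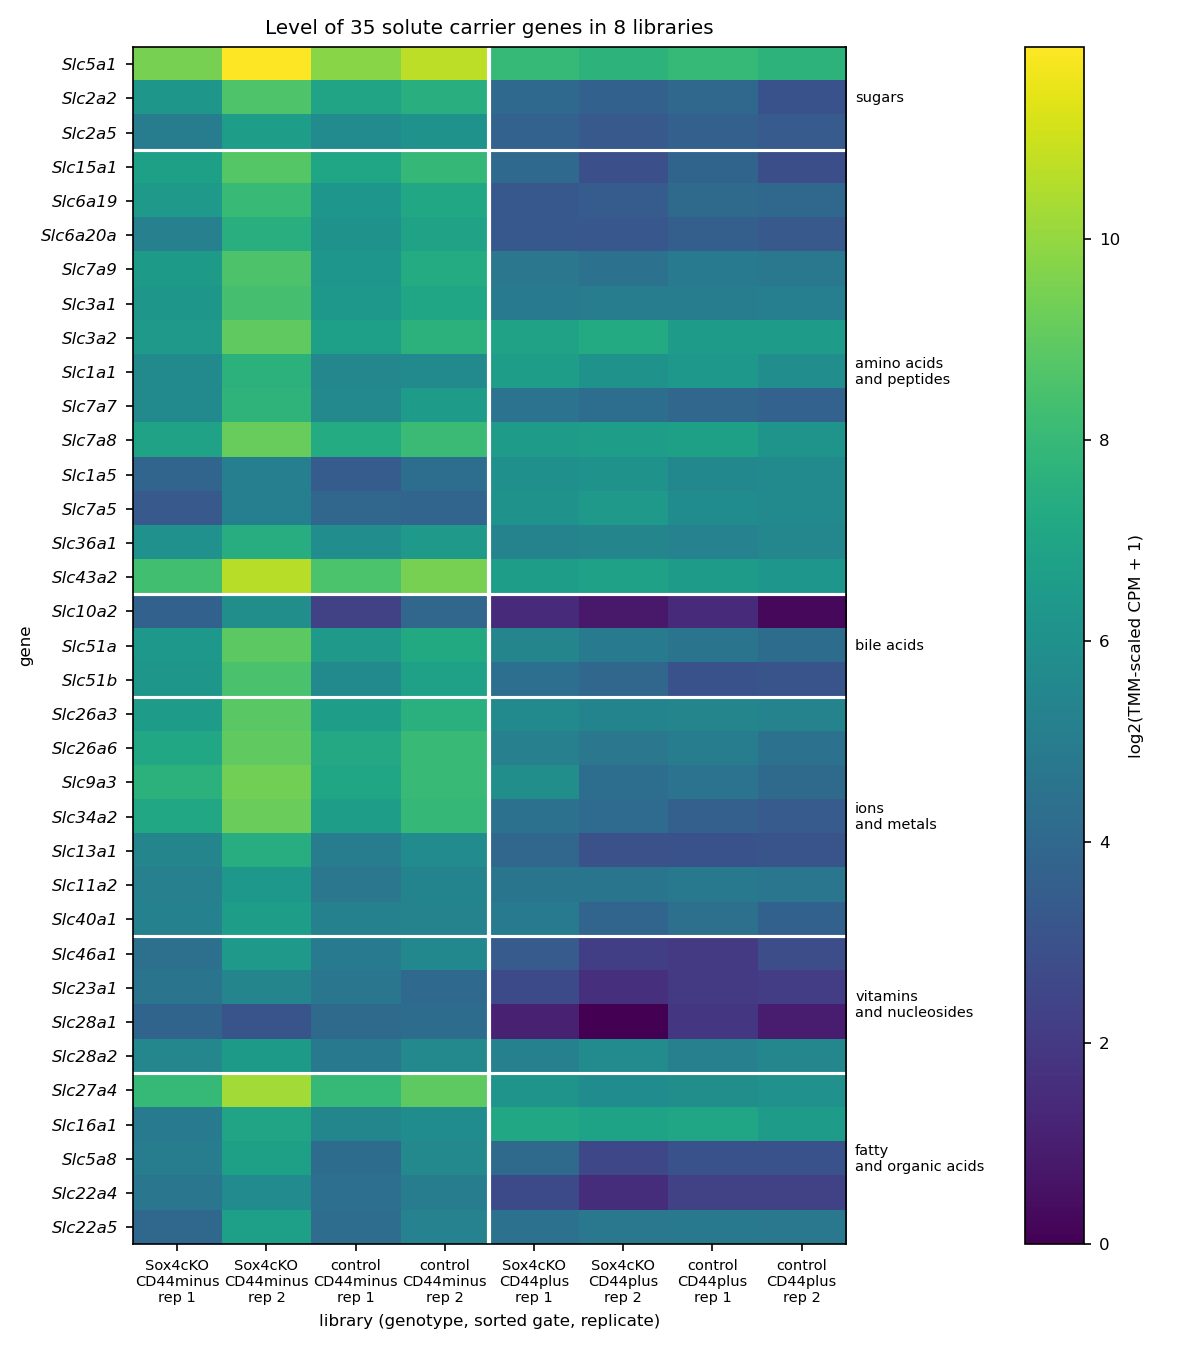
Level of each of the 35 genes (rows, by substrate group) in each of the 8 libraries (columns, Sox4cKO left of control within a gate), as log2 of TMM-scaled CPM plus 1. The CD44minus columns are brighter for most rows, Sox4cKO CD44minus replicate 2 most of all, and Slc1a5 and Slc7a5 are darker in all 4 CD44minus columns than in the CD44plus ones.

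Of the 3 sugar carriers, 2 were higher in CD44minus in both genotypes, and the most read of them, Slc5a1, did not pass. Slc5a1 on chr5:33104219-33162870 (mm10, plus strand, 15 merged exons) encodes the apical sodium-glucose cotransporter. It was at 696 and 3847 CPM in Sox4cKO CD44minus, against 247 and 204 CPM in Sox4cKO CD44plus. Its values were 872 and 1714 CPM in control CD44minus, against 250.5 and 209 CPM in control CD44plus. The gates do not overlap, yet the CD44minus replicates lie far apart and neither genotype passed the test (log2 fold change 3.33, SE 1.21 in Sox4cKO and 2.49, SE 1.17 in control). With the 4 control libraries fitted alone, Slc5a1 was higher in CD44minus. Slc2a2, the basolateral hexose carrier known as GLUT2, was at 78.6 and 396 CPM in Sox4cKO CD44minus, against 15.8 and 11.9 CPM in Sox4cKO CD44plus. The animals without Cre gave 124 and 179 CPM in control CD44minus, against 15.3 and 6.93 CPM in control CD44plus. It was higher in CD44minus in both genotypes (log2 fold change 4.10, SE 0.87, edgeR adjusted p = 0.021 in Sox4cKO and 3.75, SE 0.86, adjusted p = 0.0292 in control). Slc2a5, the apical fructose carrier, was at 31.6 and 100.2 CPM in Sox4cKO CD44minus, against 12.6 and 9.18 CPM in Sox4cKO CD44plus, and at 52.5 and 66 CPM in control CD44minus, against 11.4 and 9.85 CPM in control CD44plus. It passed in both too (edgeR adjusted p = 0.0333 and 0.0446), with log2 fold changes of 2.61 in Sox4cKO and 2.47 in control.

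Of the 13 carriers of amino acids and peptides, 4 were higher in CD44minus in Sox4cKO and 3 in control, all of them apical, and 0 were lower. Slc15a1, which takes up dipeptides and tripeptides with protons, was at 108 and 437 CPM in Sox4cKO CD44minus, against 16 and 6.63 CPM in Sox4cKO CD44plus. The levels were 133 and 241 CPM in control CD44minus, against 13.2 and 6.2 CPM in control CD44plus, a difference of similar size. It had the highest log2 fold change of the 35 genes in control (4.25, SE 0.91, edgeR adjusted p = 0.0237) and the second highest in Sox4cKO (4.59, SE 0.92, adjusted p = 0.0168). Slc6a19, the main sodium-coupled carrier of neutral amino acids in the brush border, was at 85 and 258 CPM in Sox4cKO CD44minus, against 8.67 and 9.94 CPM in Sox4cKO CD44plus. Its values were 74.7 and 135 CPM in control CD44minus, against 16.2 and 15.5 CPM in control CD44plus, and the groups do not overlap in either genotype. Slc6a19 was higher in CD44minus in Sox4cKO (4.20, SE 0.75, edgeR adjusted p = 0.0138) and just passed in control (2.73, SE 0.71, adjusted p = 0.0495). Slc6a20a, a carrier of proline and other imino acids, was at 35.6 and 174 CPM in Sox4cKO CD44minus, against 8.81 and 8.52 CPM in Sox4cKO CD44plus. The animals without Cre gave 67.3 and 114 CPM in control CD44minus, against 11.2 and 9.12 CPM in control CD44plus, and it passed in both genotypes (3.60 in Sox4cKO and 3.16 in control). Of its exon bases, 14.9% are shared with genes on the other strand, Ccr9 among them.

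Slc7a9 and Slc3a1 form the light and the heavy chain of the apical exchanger for cystine and dibasic amino acids. Slc7a9 was at 88.9 and 383 CPM in Sox4cKO CD44minus, against 25.4 and 20.8 CPM in Sox4cKO CD44plus, and was higher in CD44minus (3.35, SE 0.81, edgeR adjusted p = 0.035). The levels were 75.4 and 161 CPM in control CD44minus, against 28 and 25.9 CPM in control CD44plus, which did not pass (2.14, SE 0.77). Slc3a1 did not pass in either genotype, with 78.1 and 332 CPM in Sox4cKO CD44minus, against 29.9 and 31.3 CPM in Sox4cKO CD44plus, and 80.8 and 128 CPM in control CD44minus, against 32.2 and 34.7 CPM in control CD44plus. The balance of the 2 chains was compared between the gates without a test. Slc7a9 reads per Slc3a1 read were 1.14 and 1.15 in Sox4cKO CD44minus, 0.933 and 1.26 in control CD44minus, 0.85 and 0.665 in Sox4cKO CD44plus and 0.87 and 0.747 in control CD44plus, and no CD44plus value reached a CD44minus one. The nearest values, 0.933 and 0.87, lie close, and 0.933 rests on 112 Slc7a9 and 120 Slc3a1 reads. Of the Slc3a1 exon bases, 26.5% overlap Prepl on the other strand. Slc36a1, a proton-coupled carrier of small amino acids, overlapped in neither genotype and passed in neither, with 64.2 and 171 CPM in Sox4cKO CD44minus, against 39.4 and 42.1 CPM in Sox4cKO CD44plus, and 56.5 and 84 CPM in control CD44minus, against 37.5 and 45.2 CPM in control CD44plus.

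Several basolateral amino acid carriers share a heavy chain, Slc3a2. The balance of its partners, described by ratios without a test, differed between the gates for Slc7a5 and Slc7a7. Slc3a2 itself overlapped between gates in Sox4cKO, with 86.5 and 512 CPM in Sox4cKO CD44minus, against 114 and 155 CPM in Sox4cKO CD44plus. Its values were 106 and 199 CPM in control CD44minus, against 95.7 and 95.2 CPM in control CD44plus. Slc7a5, its light chain in many dividing cells, was at 8.89 and 34 CPM in Sox4cKO CD44minus, against 65.7 and 82.6 CPM in Sox4cKO CD44plus. The animals without Cre gave 14.1 and 13.8 CPM in control CD44minus, against 55 and 48.7 CPM in control CD44plus, and in both genotypes every CD44minus library lies under every CD44plus library. Background would supply 11.4 of 18 and 3.05 of 125 Slc7a5 reads in Sox4cKO CD44minus. For control CD44minus the figures are 7.58 of 21 and 7.49 of 35. Per Slc3a2 read, Slc7a5 had 0.103 and 0.0665 reads in Sox4cKO CD44minus, against 0.578 and 0.533 in Sox4cKO CD44plus. The control libraries gave 0.134 and 0.069 in CD44minus, against 0.575 and 0.511 in CD44plus. The partner Slc7a7, which releases dibasic amino acids, went the other way, with 0.594 and 0.419 in Sox4cKO CD44minus, against 0.198 and 0.121 in Sox4cKO CD44plus. Control gave 0.459 and 0.465 in CD44minus, against 0.151 and 0.13 in CD44plus. The partner Slc7a8, which carries neutral amino acids, had 1.31 and 1.09 in Sox4cKO CD44minus, 1.51 and 1.37 in control CD44minus, 0.816 and 0.635 in Sox4cKO CD44plus and 1.13 and 0.736 in control CD44plus. These ratios do not depend on how libraries are scaled, and the 4 CD44minus values lie apart from the 4 CD44plus values for Slc7a5 and for Slc7a7 but overlap them for Slc7a8, where they lie apart only within a genotype. In CPM, Slc7a7 was at 51.4 and 214 CPM in Sox4cKO CD44minus, against 22.5 and 18.7 CPM in Sox4cKO CD44plus, and at 48.5 and 92.7 CPM in control CD44minus, against 14.5 and 12.4 CPM in control CD44plus. Slc7a8 was at 114 and 560.3 CPM in Sox4cKO CD44minus, against 92.8 and 98.5 CPM in Sox4cKO CD44plus, and at 159.5 and 273 CPM in control CD44minus, against 108 and 70.1 CPM in control CD44plus. The gates do not overlap in either genotype for Slc7a7, and Slc3a2, Slc7a7 and Slc7a8 passed in neither.

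Slc1a5, the sodium-coupled glutamine carrier used by many dividing cells, also lay below CD44plus in every CD44minus library. It was at 13.8 and 34.6 CPM in Sox4cKO CD44minus, against 61.8 and 66 CPM in Sox4cKO CD44plus, and at 10.1 and 18.9 CPM in control CD44minus, against 46.8 and 49.8 CPM in control CD44plus, without overlap in either. Background would supply 12.9 of 28 and 3.44 of 127 Slc1a5 reads in Sox4cKO CD44minus. For control CD44minus the figures are 8.53 of 15 and 8.43 of 48. The log2 fold changes of Slc1a5 (-1.39, SE 0.59 in Sox4cKO and -1.72, SE 0.60 in control) and of Slc7a5 (-1.77, SE 0.62 and -1.90, SE 0.64) did not pass without the animal as a block. With that block, Slc7a5 was lower in CD44minus in both genotypes (edgeR adjusted p = 0.0419 in Sox4cKO and 0.0374 in control) and Slc1a5 in control (adjusted p = 0.0476). Both also passed in control when the 4 control libraries were fitted alone (Slc1a5 -1.49, SE 0.36, adjusted p = 0.000259 and Slc7a5 -1.70, SE 0.37, adjusted p = 3.62e-05, edgeR). Slc1a1, an apical glutamate and aspartate carrier, was at 49.4 and 202 CPM in Sox4cKO CD44minus, against 99.7 and 68.5 CPM in Sox4cKO CD44plus, and at 44.4 and 50.7 CPM in control CD44minus, against 79.5 and 56.9 CPM in control CD44plus, so that the gates overlap in Sox4cKO only. Of its exon bases, 31.9% overlap a gene on the other strand. Slc43a2, a carrier that lets branched and aromatic amino acids out of the cell, was the second most read member in CD44minus after Slc5a1. It was at 310.3 and 1576 CPM in Sox4cKO CD44minus, against 98.7 and 112 CPM in Sox4cKO CD44plus, and at 374 and 718 CPM in control CD44minus, against 94.1 and 75.2 CPM in control CD44plus, and passed in neither genotype (log2 fold change 3.16, SE 1.02 and 2.69, SE 1.00). With the 4 control libraries fitted alone, Slc43a2 was higher in CD44minus.

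Of the 3 bile acid carriers, 2 were higher in CD44minus in Sox4cKO and 1 in control. Slc10a2 encodes the apical sodium-dependent bile acid carrier of the ileum, and Slc51a and Slc51b encode the 2 subunits of the basolateral carrier that passes bile acids on. Slc51b (chr9:65412714-65422955, mm10, minus strand) was at 78.6 and 364 CPM in Sox4cKO CD44minus, against 19.5 and 14.5 CPM in Sox4cKO CD44plus. The levels were 49.8 and 110.4 CPM in control CD44minus, against 7.05 and 7.66 CPM in control CD44plus, and it was higher in CD44minus in both genotypes (3.71, SE 0.81, edgeR adjusted p = 0.023 in Sox4cKO and 3.45, SE 0.81, adjusted p = 0.0323 in control). Slc51a was at 81.5 and 483 CPM in Sox4cKO CD44minus, against 42.2 and 28.4 CPM in Sox4cKO CD44plus, and at 83.5 and 151 CPM in control CD44minus, against 22.9 and 17.7 CPM in control CD44plus, and did not pass in either (3.0 and 2.53). Of the exon bases, 17.7% of Slc51a are shared with Pcyt1a and 12.8% of Slc51b with Rasl12, on the other strand. Slc10a2 rests on few reads, 24 and 216 in Sox4cKO CD44minus and 6 and 36 in control CD44minus, against 12 and 8 in Sox4cKO CD44plus and 19 and 1 in control CD44plus. Background would supply 12.8 and 3.42 of the reads in Sox4cKO CD44minus and 8.49 and 8.38 in control CD44minus. By this estimate replicate 1 of control does not stand above it. The estimate is too high if reads on UTRs of the receptor genes are counted, so this is not settled. It would supply 7.27 and 2.38 reads in Sox4cKO CD44plus and 9.41 and 4.28 in control CD44plus. Slc10a2 had the highest log2 fold change of the list in Sox4cKO (4.84, SE 1.07, edgeR adjusted p = 0.0233) and did not pass in control (3.16, SE 1.03).

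Of the 7 ion and metal carriers, 4 were higher in CD44minus in Sox4cKO and 1 in control, with the lowest folds on the 2 iron carriers. Slc34a2, the apical sodium-phosphate cotransporter of the small intestine, was at 136 and 584 CPM in Sox4cKO CD44minus, against 20.5 and 16.9 CPM in Sox4cKO CD44plus. Its values were 98.2 and 245 CPM in control CD44minus, against 11.6 and 9.85 CPM in control CD44plus, and it was higher in CD44minus in both (4.26, SE 0.90, edgeR adjusted p = 0.021 in Sox4cKO and 4.0, SE 0.90, adjusted p = 0.0272 in control). Slc9a3, the sodium-proton exchanger of the brush border, was at 202 and 654 CPM in Sox4cKO CD44minus, against 57.8 and 18.9 CPM in Sox4cKO CD44plus, and at 129.9 and 271 CPM in control CD44minus, against 22.5 and 16.4 CPM in control CD44plus. It passed in Sox4cKO (edgeR adjusted p = 0.0485) and not in control (adjusted p = 0.0572), with nearly the same fold (3.48 and 3.36). The anion exchanger Slc26a6 was at 135 and 515 CPM in Sox4cKO CD44minus, against 35.2 and 25.3 CPM in Sox4cKO CD44plus, and at 144 and 269 CPM in control CD44minus, against 31.3 and 21.2 CPM in control CD44plus. The sulfate carrier Slc13a1 was at 42.5 and 168 CPM in Sox4cKO CD44minus, against 14.4 and 6.72 CPM in Sox4cKO CD44plus, and at 31 and 52.2 CPM in control CD44minus, against 7.05 and 7.66 CPM in control CD44plus. Both passed in Sox4cKO (log2 fold changes 3.43 and 3.32) and not in control (2.97 and 2.50). Slc26a3, which exchanges chloride for bicarbonate, was at 92.9 and 462 CPM in Sox4cKO CD44minus, against 48.7 and 40.9 CPM in Sox4cKO CD44plus, and at 98.2 and 187 CPM in control CD44minus, against 42 and 39 CPM in control CD44plus, and passed in neither. Slc11a2 brings iron in across the apical membrane and Slc40a1, ferroportin, lets it out across the basolateral one. Slc11a2 was at 35.6 and 79.8 CPM in Sox4cKO CD44minus, against 24.1 and 24 CPM in Sox4cKO CD44plus, and at 25.6 and 40.1 CPM in control CD44minus, against 27.5 and 24.8 CPM in control CD44plus, with overlap in control only. Slc40a1 was at 36.1 and 102 CPM in Sox4cKO CD44minus, against 28.3 and 13.6 CPM in Sox4cKO CD44plus, and at 36.3 and 39.7 CPM in control CD44minus, against 20.1 and 11.9 CPM in control CD44plus, and neither gene passed.

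Of the 4 carriers of vitamins and nucleosides, 2 were higher in CD44minus in Sox4cKO and 1 in control. Slc46a1, the proton-coupled folate carrier, was at 19.8 and 83.6 CPM in Sox4cKO CD44minus, against 9.54 and 3.69 CPM in Sox4cKO CD44plus, and at 28.9 and 45.6 CPM in control CD44minus, against 3.12 and 6.02 CPM in control CD44plus, and was higher in CD44minus in both (edgeR adjusted p = 0.035 and 0.0379). Slc23a1, a vitamin C carrier, was at 23.2 and 41.9 CPM in Sox4cKO CD44minus, against 5.35 and 2.18 CPM in Sox4cKO CD44plus, where it passed (3.13, SE 0.71, edgeR adjusted p = 0.0254), and at 24.2 and 15.7 CPM in control CD44minus, against 3.04 and 3.47 CPM in control CD44plus, where it did not. Neither nucleoside carrier passed in either genotype. The log2 fold change in Sox4cKO was 4.21 (SE 1.29) for Slc28a1 and 0.56 (SE 0.58) for Slc28a2. Slc28a1, which prefers pyrimidine nucleosides, had 27 and 28 reads in Sox4cKO CD44minus and 24 and 44 in control CD44minus, against 8 and 0 in Sox4cKO CD44plus and 30 and 5 in control CD44plus. Background would supply 9.09 and 2.43 of its reads in Sox4cKO CD44minus and 6.03 and 5.96 in control CD44minus. In CD44plus it would supply 5.17 and 1.69 reads in Sox4cKO and 6.69 and 3.04 in control. The 0 reads in Sox4cKO CD44plus replicate 2 allow up to 3 reads, or 0.227 CPM of gene counts. Slc28a2, which prefers purine nucleosides, was at 44 and 88.2 CPM in Sox4cKO CD44minus, against 37.1 and 52.4 CPM in Sox4cKO CD44plus, and at 26.9 and 47.1 CPM in control CD44minus, against 35 and 45.1 CPM in control CD44plus, and overlapped between gates in both. Slc28a1 reads per Slc28a2 read were 0.303 and 0.0864 in Sox4cKO CD44minus and 0.6 and 0.367 in control CD44minus, against 0.0311 and 0 in Sox4cKO CD44plus and 0.0765 and 0.0202 in control CD44plus.

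Of the 5 carriers of fatty and organic acids, 1 was higher in CD44minus, Slc22a4, in both genotypes. Slc27a4, a fatty acid transport protein that also activates long-chain fatty acids, was at 252 and 1205 CPM in Sox4cKO CD44minus, against 70.8 and 53.8 CPM in Sox4cKO CD44plus. The animals without Cre gave 252 and 494 CPM in control CD44minus, against 57.3 and 63.1 CPM in control CD44plus, and it passed in neither genotype (3.55, SE 0.98 and 2.63, SE 0.94). With the 4 control libraries fitted alone, Slc27a4 was higher in CD44minus. Slc16a1 carries lactate and other monocarboxylates with protons. It was at 29.1 and 124 CPM in Sox4cKO CD44minus, against 142 and 118 CPM in Sox4cKO CD44plus, where replicate 2 of CD44minus lies between the CD44plus values. The animals without Cre gave 43.7 and 54.6 CPM in control CD44minus, against 129 and 95.6 CPM in control CD44plus, without overlap. With the 4 control libraries alone it was lower in CD44minus (-0.99, SE 0.38, adjusted p = 0.0204, edgeR). Slc5a8, a sodium-coupled monocarboxylate carrier, was at 32.1 and 109 CPM in Sox4cKO CD44minus, against 16.2 and 4.92 CPM in Sox4cKO CD44plus, and at 17.5 and 47.9 CPM in control CD44minus, against 6.96 and 6.93 CPM in control CD44plus. It missed the threshold in Sox4cKO (log2 fold change 2.75, SE 0.72) and in control (2.25, SE 0.72). Slc22a4, a carrier of organic cations and ergothioneine, was at 24.7 and 52.5 CPM in Sox4cKO CD44minus, against 5.35 and 1.99 CPM in Sox4cKO CD44plus. The levels were 19.5 and 32.6 CPM in control CD44minus, against 4.02 and 4.01 CPM in control CD44plus, and it was higher in CD44minus in both genotypes (3.41, SE 0.69, edgeR adjusted p = 0.018 in Sox4cKO and 2.70, SE 0.68, adjusted p = 0.0449 in control). Slc22a5, the carnitine carrier, overlapped between gates, with 15.3 and 105 CPM in Sox4cKO CD44minus, against 20.7 and 26 CPM in Sox4cKO CD44plus, and 18.2 and 38.1 CPM in control CD44minus, against 27.1 and 26.3 CPM in control CD44plus.

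**Figure D2:**
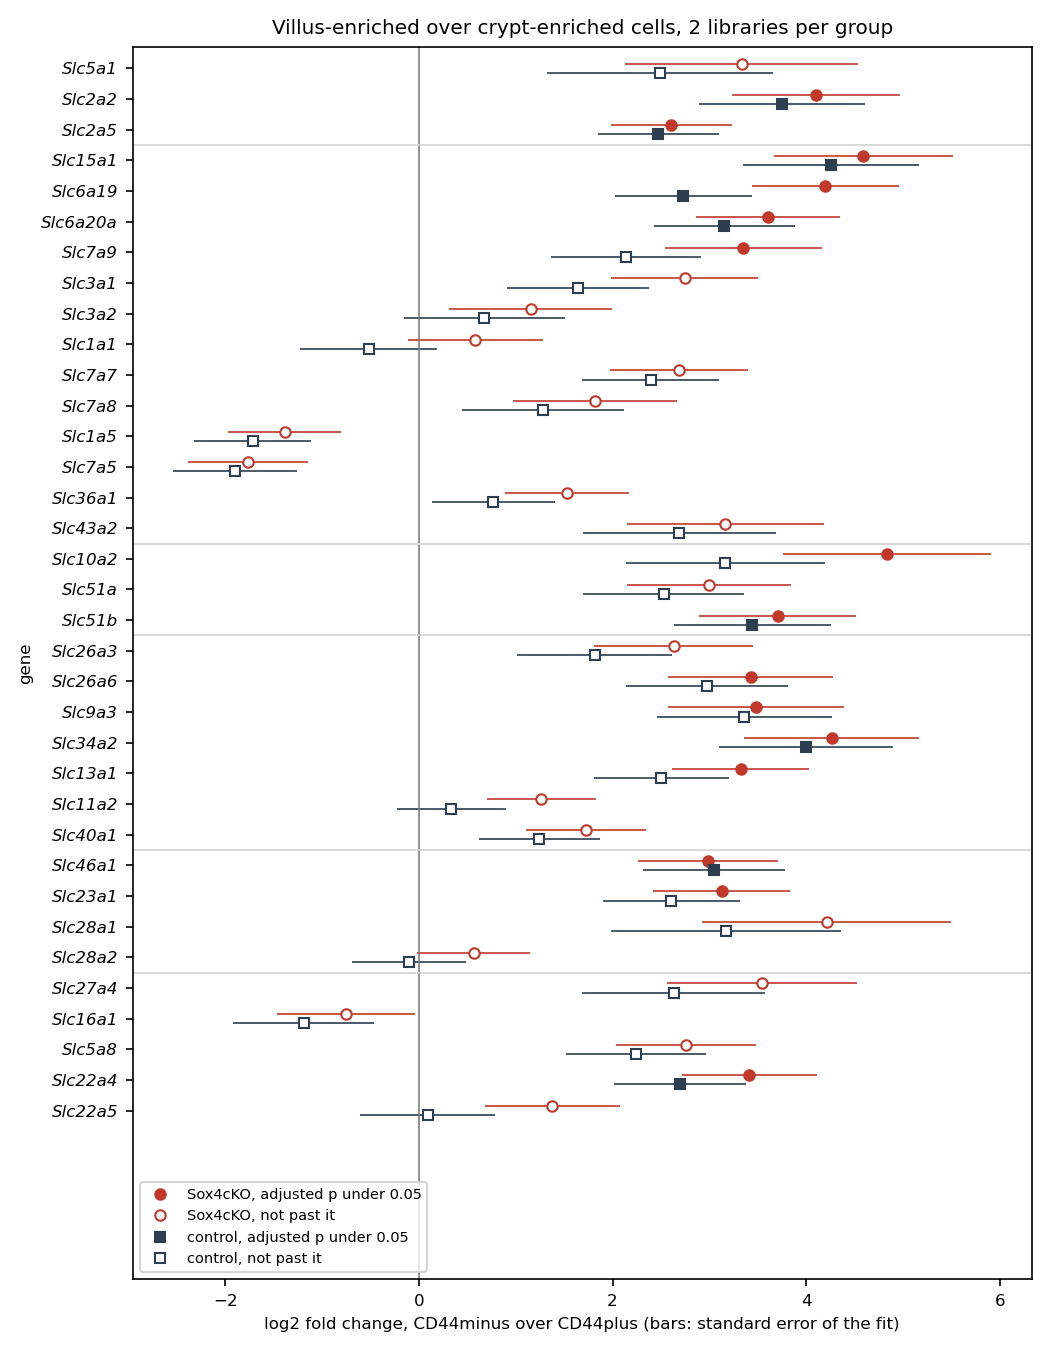
Log2 fold change of CD44minus over CD44plus for each of the 35 genes (edgeR, all 8 libraries, 2 per group), Sox4cKO as red circles above control as dark squares, bars of 1 standard error, filled where the adjusted p is under 0.05. In both genotypes Slc7a5 lies lowest, at -1.77 in Sox4cKO and -1.90 in control, the highest points are Slc10a2 in Sox4cKO (4.84) and Slc15a1 in control (4.25), and 15 of the red and 9 of the dark points are filled.

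Counts without a model show the same split of the list. In Sox4cKO both CD44minus libraries lay above both CD44plus libraries for 28 members, against 16.2% of all genes, and below them for Slc1a5 and Slc7a5, against 21.1%. In control 28 members lay above, against 41% of all genes, and Slc1a5, Slc7a5, Slc1a1 and Slc16a1 lay below, against 38.7%. The 4 control libraries varied less than the 8 together (biological coefficient of variation 0.291 against 0.616). Fitted alone, they gave 27 members higher in CD44minus and 3 lower, where 30.4% and 24.4% of 18006 genes were called. The 5 members that passed in neither direction there were Slc3a2, Slc1a1, Slc11a2, Slc28a2 and Slc22a5. The 27 include Slc5a1, Slc43a2, Slc27a4, Slc26a3 and Slc3a1, which passed in neither genotype with all 8 libraries. The 4 Sox4cKO libraries alone gave 0 calls of any gene (2154 genes at an unadjusted p under 0.05) with 32 members positive. With the animal as a block, which its libraries share across gates, 19 members were higher and 1 lower in Sox4cKO, against 4.43% and 3.95% of all genes. In control that fit gave 18 higher and 2 lower, against 10.5% and 7.37%.

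The number of calls depends on single libraries, which the median over the members does less. In Sox4cKO, 31 members were higher and 1 lower in CD44minus without its replicate 1, against 8.06% and 8.32% of all genes. The counts were 22 and 3 without its replicate 2, against 16.1% and 25.1%. Higher members were 10 without CD44plus replicate 1, against 0.641% of all genes, and 0 without CD44plus replicate 2, against 0%. There were also 10 without control CD44minus replicate 2 or control CD44plus replicate 2, against 0.587% and 0.485%. In control they were 26, with 3 lower, without replicate 1 of Sox4cKO CD44minus, against 12% and 24.1% of all genes, and likewise without its replicate 2, against 11.9% and 23%. The count was 0 without any 1 of the 4 control libraries, against 0 to 0.147% of all genes, and 7 without Sox4cKO CD44plus replicate 2, against 0.416%. The median log2 fold change over the members was 1.60 to 3.69 in Sox4cKO and 1.98 to 2.78 in control across these 8 omissions.

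Per length of exon, the order of the members was led by the same gene in all groups. In RPKM, the CPM divided by kilobases of exon, Slc5a1 had 169.6 and 937 in Sox4cKO CD44minus, 212 and 418 in control CD44minus, 60.3 and 49.6 in Sox4cKO CD44plus and 61 and 50.9 in control CD44plus. Slc51b, with only 709 exon bases, ranked 2 in CD44minus with 111 and 514 RPKM in Sox4cKO and 70.2 and 156 RPKM in control. Slc27a4 ranked 3 there, with 57 and 273 RPKM in Sox4cKO and 57.2 and 112 RPKM in control. In CD44plus rank 2 went to Slc3a2, with 32.2 and 44 RPKM in Sox4cKO and 27.1 and 27 RPKM in control. Slc16a1 had 32 and 26.6 RPKM in Sox4cKO CD44plus and 29.2 and 21.6 RPKM in control CD44plus. It was ranked 22 of 35 in CD44minus and 3 of 35 in CD44plus in both genotypes. Slc7a5 ranked 34 in Sox4cKO CD44minus and 33 in control CD44minus, against 5 in Sox4cKO CD44plus and 6 in control CD44plus. Rank 35 went to Slc28a1 in both Sox4cKO gates and to Slc10a2 in both control gates. This order has 34 pairs of neighbours. Their replicates overlapped in 34 in Sox4cKO CD44minus, 31 in control CD44minus, 29 in Sox4cKO CD44plus and 26 in control CD44plus. Replicates also differ as whole libraries, with 34 of the 35 members higher in replicate 2 of Sox4cKO CD44minus. Overlap across replicates thus does not tell whether 2 neighbours keep their order within each library. Slc5a1 and Slc51b overlap in Sox4cKO CD44minus, yet Slc5a1 was the higher of them in both libraries.

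As shares of the reads on the 35 genes, which need no scaling between libraries, the gates differed in makeup. Sugar carriers took 25.2 and 29.9% in Sox4cKO CD44minus and 30.5 and 30.8% in control CD44minus, against 17.7 and 16.1% in Sox4cKO CD44plus and 20.2 and 19.1% in control CD44plus. Amino acid and peptide carriers took 34.1 and 33.7% in Sox4cKO CD44minus and 36.1 and 35.1% in control CD44minus, against 43.8 and 51.5% in Sox4cKO CD44plus and 46.1 and 46.3% in control CD44plus. Slc7a5 alone took 0.277 and 0.234% in Sox4cKO CD44minus and 0.411 and 0.216% in control CD44minus, against 4.22 and 5.91% in Sox4cKO CD44plus and 4.01 and 4.13% in control CD44plus. Fatty and organic acid carriers took 10.2 to 11% in CD44minus and 14.6 to 16.6% in CD44plus. Slc16a1 alone took 0.855 to 1.27% in CD44minus and 8.11 to 9.43% in CD44plus. Ion and metal carriers took 16.4 to 21.2% in CD44minus and 10.5 to 14.7% in CD44plus.

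**Figure D3:**
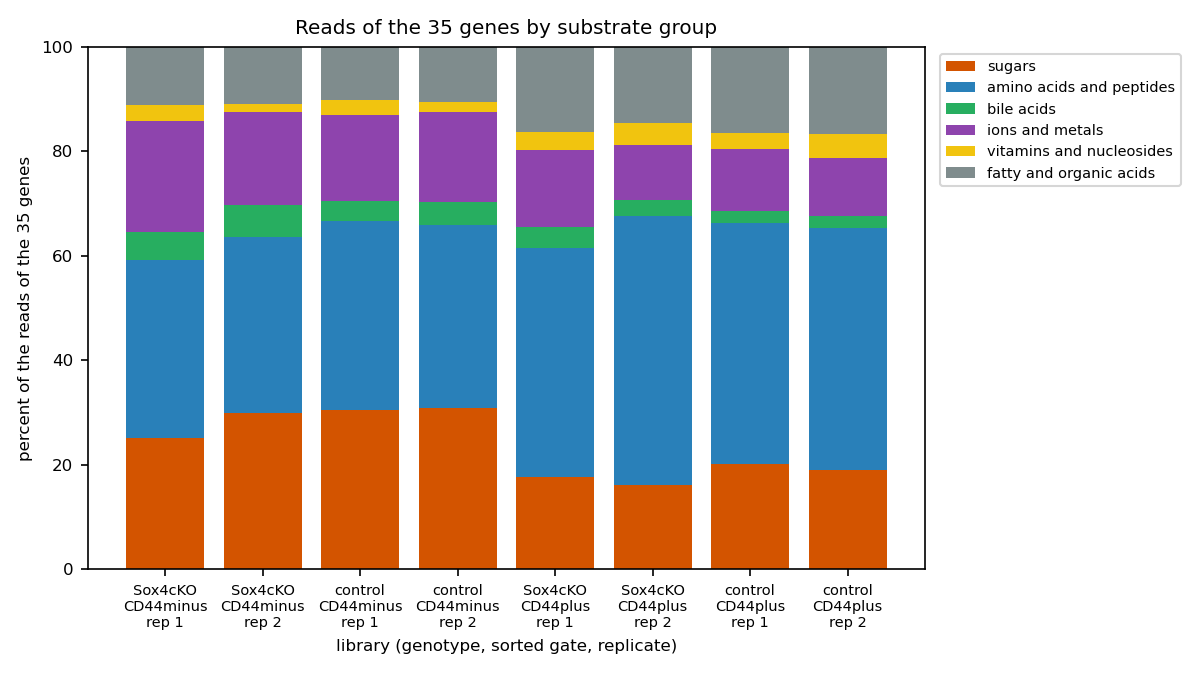
Percent of the reads on the 35 genes that fell on each substrate group, in each of the 8 libraries (stacked bars, Sox4cKO left of control within a gate). Sugar carriers take 25.2 to 30.8% in CD44minus and 16.1 to 20.2% in CD44plus, and in both gates bile acid carriers take more, and sugar carriers less, in Sox4cKO than in control.

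The second question is whether loss of Sox4 altered these genes within a gate. In CD44plus, 0 of the 35 members passed edgeR's test for Sox4cKO against control, as did 0% of all genes. At an unadjusted p under 0.05 there were 128 genes and 0 members, and DESeq2 also called 0. The median log2 fold change over the members was 0.20, with 25 positive, beside -0.00049 over all genes, and all 35 intervals of 95% hold 0. The median interval reached 1.49 log2 units to either side, so differences of that size could not be told from none.

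The basolateral bile acid carrier had the smallest p of the list in CD44plus, 0.126 for Slc51b before adjustment in edgeR. Slc51b was at 19.5 and 14.5 CPM in Sox4cKO, against 7.05 and 7.66 CPM in control (log2 fold change 1.21, SE 0.75, 95% interval -0.37 to 2.78). Slc51a was at 42.2 and 28.4 CPM in Sox4cKO, against 22.9 and 17.7 CPM in control. Both Sox4cKO libraries lay above both control libraries for Slc51a, Slc51b and 6 other members (Slc3a2, Slc7a7, Slc1a5, Slc7a5, Slc43a2 and Slc34a2), or 8 of 35, against 14.2% of all genes. They lay below for Slc6a19, Slc6a20a, Slc7a9, Slc3a1, Slc11a2 and Slc22a5, 6 of 35, against 16.4%. Slc6a19 was at 8.67 and 9.94 CPM in Sox4cKO, against 16.2 and 15.5 CPM in control, and Slc34a2 at 20.5 and 16.9 CPM, against 11.6 and 9.85 CPM. Slc9a3 was high in 1 library only, with 57.8 and 18.9 CPM in Sox4cKO, against 22.5 and 16.4 CPM in control (log2 fold change 0.97, SE 0.84), and this turned to -0.16 without Sox4cKO replicate 1.

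With the 4 CD44plus libraries fitted alone (biological coefficient of variation 0.335), 0 members were called, and 17 genes of all were called, each of them lower. At an unadjusted p under 0.05, 6 members stood out, against 5.08% of all genes. They were Slc51b, Slc51a, Slc34a2, Slc7a5, Slc3a2 and, with the opposite sign, Slc6a19. The smallest adjusted p was that of Slc51b (1.21, SE 0.33, adjusted p = 0.632, edgeR). Immune cells can carry CD44, and their markers were read in this gate. The sum of 7 T cell markers was 1941 and 4636 CPM in Sox4cKO CD44plus, against 1840 and 2785 CPM in control CD44plus, with overlap. That of 4 mast cell markers was 3386 and 16770 CPM in Sox4cKO, against 1646 and 2817 CPM in control, without overlap, and none of these 4 genes was at 0 in any library. Slc3a2, Slc7a5 and Slc1a5 are also used by activated lymphocytes, and Sox4cKO replicate 2 was the highest library for all 3 as it was for these markers. The part of these cells in those values was not tested. Enteroendocrine markers lay the other way, with a sum of 1138 and 1511 CPM in Sox4cKO, against 4451 and 5526 CPM in control.

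In CD44minus, 0 members and 0% of all genes passed for Sox4cKO against control, with 116 genes and 0 members at an unadjusted p under 0.05 and 0 calls by DESeq2. The median over the members was 0.81, with 34 positive, beside 0.19 over all genes, and it depends on Sox4cKO CD44minus replicate 2. In that group the second library was at a median of 4.17 times the first in TMM-scaled CPM over the members, 1.28 times in CPM of gene counts and 0.706 times in reads per Epcam read. Epcam encodes CD326, the antigen of the sort. Without Sox4cKO CD44minus replicate 1 the median was 1.41 and 27 members were called higher and 0 lower, against 27.6% and 9.95% of all genes. Without replicate 2 it was -0.43 and 0 were called. In each such fit the lone library is assumed to vary like the other groups. The libraries do not overlap for 0 members with Sox4cKO above, against 6.5% of all genes, and for Slc28a1 with Sox4cKO below, against 5.96%.

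**Figure D4:**
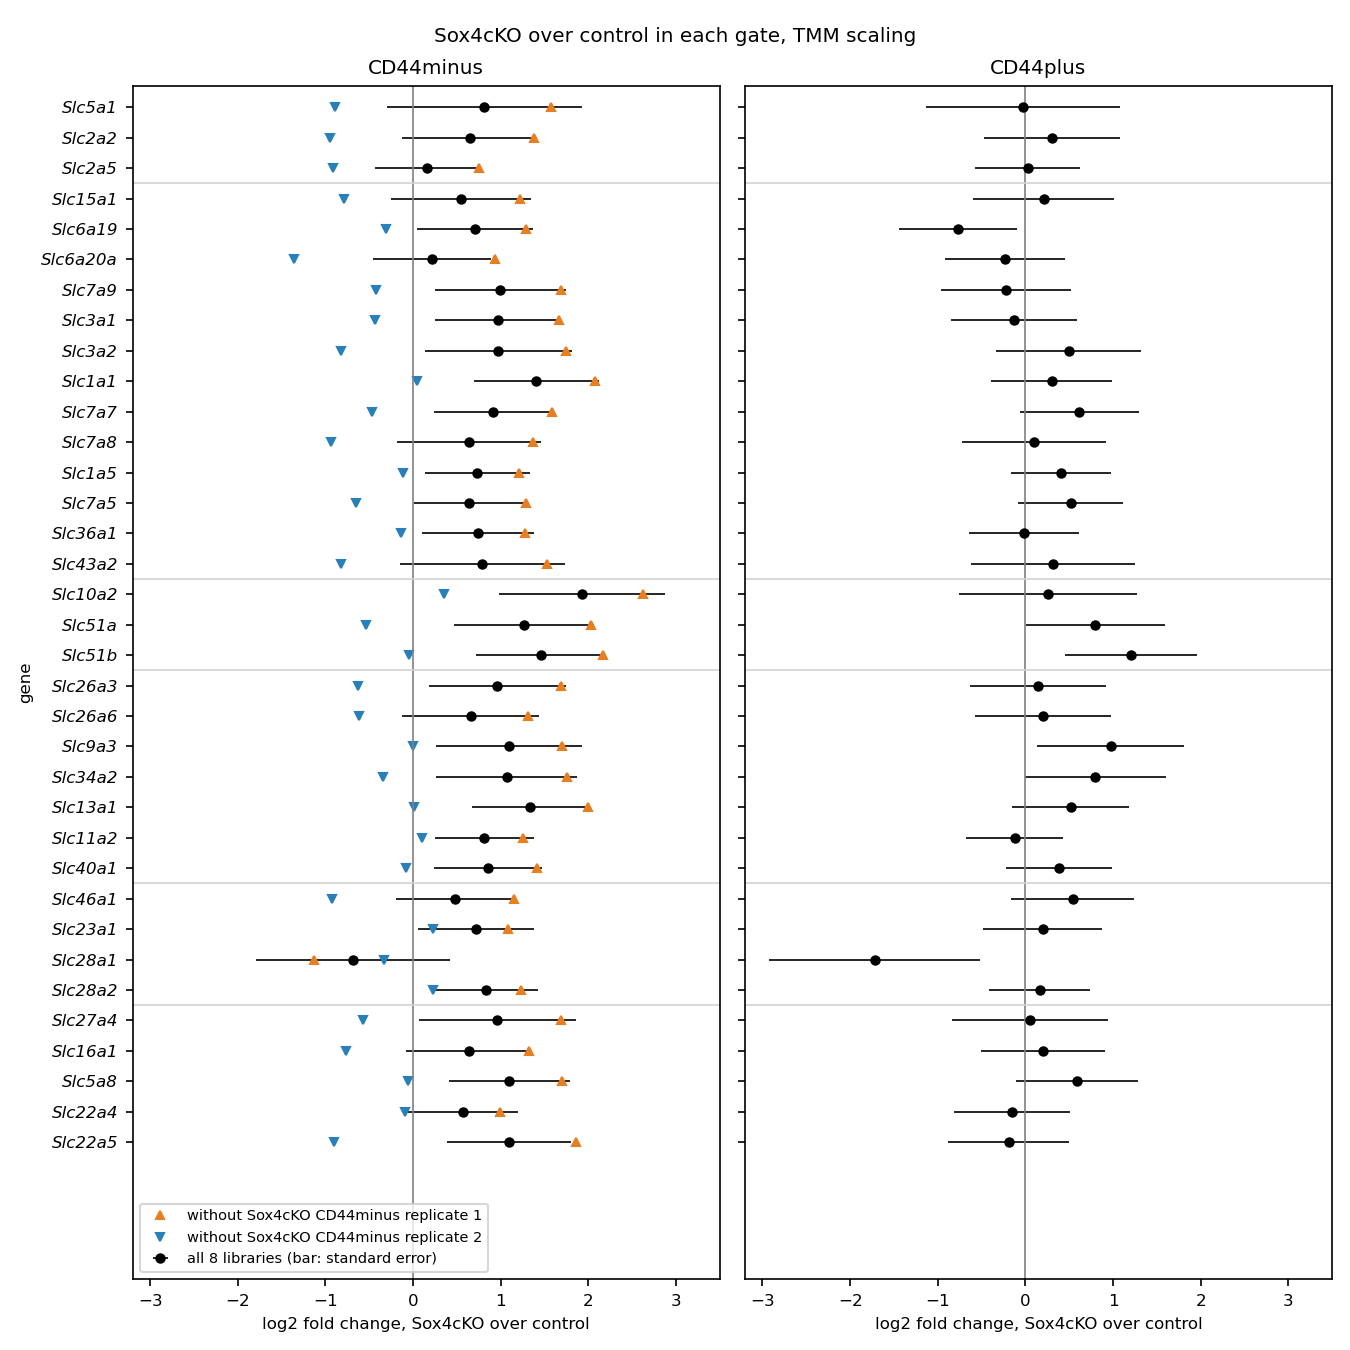
Log2 fold change of Sox4cKO over control for each of the 35 genes in CD44minus (left) and CD44plus (right), black points with bars of 1 standard error from all 8 libraries, and in the left panel also without replicate 1 (orange) or replicate 2 (blue) of Sox4cKO CD44minus. Orange and blue points lie on opposite sides of 0 for 27 of the 35 genes, and 0 genes pass the test in either gate with all 8 libraries.

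Reads per 100 Epcam reads are a scale added after the data were seen. On it, in CD44minus, the bile acid carriers lay on the other side of control from the sugar carriers. Slc51b had 16.6 and 13.1 reads per 100 Epcam reads in Sox4cKO CD44minus, against 9.81 and 11.5 in control CD44minus. Slc51a had 17.3 and 17.3 in Sox4cKO, against 16.4 and 15.7 in control, and Slc10a2 2.51 and 2.11, against 0.796 and 1.47. These 3 were the members with both Sox4cKO libraries above both control libraries, where 0.964% of all genes were. For Slc10a2 the control reads are few (6 and 36), and replicate 1 is not above background by the estimate given. On the same scale Slc5a1 had 147 and 138 in Sox4cKO, against 172 and 178 in control, Slc2a2 16.6 and 14.2, against 24.4 and 18.6, and Slc15a1 22.9 and 15.7, against 26.1 and 25. With Slc2a5, Slc6a20a, Slc3a2, Slc7a8, Slc43a2 and Slc46a1 these make 9 members with both Sox4cKO libraries below, against 7.94% of all genes. The ratio of means, Sox4cKO over control, was 1.08 to 2.04 for the 3 and 0.549 to 0.883 for the 9. In CD44plus, 11 members lay above on this scale, against 15.8% of all genes (Slc3a2, Slc7a7, Slc1a5, Slc7a5, Slc43a2, Slc51a, Slc51b, Slc26a3, Slc34a2, Slc13a1 and Slc16a1), and Slc6a19 and Slc7a9 below, against 12.4%. Slc51b again stood apart, with 1.39 and 1.22 in Sox4cKO CD44plus, against 0.515 and 0.557 in control CD44plus. With libraries scaled to Epcam in edgeR, 0 members were called in either gate. The biological coefficient of variation of that fit was 0.858, against 0.616 with TMM.

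Bile acid carriers as a group took 5.36 and 6.24% of the reads on the 35 genes in Sox4cKO CD44minus, against 3.99 and 4.33% in control CD44minus. In CD44plus they took 4.07 and 3.12% in Sox4cKO, against 2.3 and 2.17% in control, without overlap in either gate. Other groups did not overlap either: of the 6 substrate groups, Sox4cKO lay above for 3 and below for 2 in CD44minus, and above for 1 and below for 2 in CD44plus. Sugar carriers lay below in both gates. Both gates of an animal share that animal, so these are 2 animals against 2. Fabp6, the ileal bile acid binding protein, and Nr1h4, the bile acid receptor, were looked up after these values were seen. Fabp6 had 18.7 and 25 reads per 100 Epcam reads in Sox4cKO CD44minus, against 17 and 21.1 in control CD44minus, with overlap. In CD44plus it had 2.45 and 3.48, against 1.24 and 1.91, without overlap. Nr1h4 had 13.8 and 9.51 in Sox4cKO CD44minus, against 9.02 and 8.81 in control CD44minus, and 3.99 and 3.85 in Sox4cKO CD44plus, against 2.85 and 2.61 in control CD44plus, without overlap in either gate. All 3 bile acid carriers of the list and Fabp6 are known to be strongest in the ileum, and the stretch taken from each animal is not given in the sources used here.

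The difference of the gate effect between genotypes was tested directly, and 0 members and 0% of all genes passed (50 genes and 0 members at an unadjusted p under 0.05, and 0 calls by DESeq2). With all 8 libraries its median over the members was 0.51, beside 0.37 over all genes. Without Sox4cKO CD44minus replicate 1, 1 member passed (Slc22a5, 2.05, SE 0.52, adjusted p = 0.0487), against 0.583% of all genes with a positive difference. Across the 35 members the log2 fold changes of CD44minus over CD44plus in Sox4cKO and in control correlated at Pearson's r 0.968 and Spearman's rho 0.942, which describes genes in libraries with no shared samples and carries no p. The 6 members called in Sox4cKO and not in control are thus not shown to differ between genotypes.

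Lists of partners, other carriers and regulators also held genes that differed between the gates. Of 24 tested genes of transport partners and pumps, 4 were higher in CD44minus in Sox4cKO and 3 in control, with 0 lower in either (medians 2.27 and 1.72). Over all genes, 0.925% were higher and 1.65% lower in Sox4cKO, and 0.445% and 2.01% in control. Pdzk1, a scaffold that holds carriers in the brush border, was at 104 and 454 CPM in Sox4cKO CD44minus, against 10.4 and 12.7 CPM in Sox4cKO CD44plus (log2 fold change 4.59, SE 0.87, edgeR adjusted p = 0.0146). G6pc, which frees glucose from its phosphate, passed in both (4.56 and 3.22).

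Of 42 other solute carriers of epithelia, 9 were higher and 1 lower in CD44minus in Sox4cKO, and 8 were higher and 2 lower in control. For these and the regulators below, the shares over all genes were 0.925% higher and 1.65% lower in Sox4cKO, and 0.445% and 2.01% in control. Slc7a15 (4.98 in Sox4cKO and 4.70 in control) led those higher in both. Next by p were Slc13a2, a carrier of dicarboxylates and of citrate (4.84), and the manganese exporter Slc30a10 (3.95) in Sox4cKO, and Slc5a12, a lactate carrier (3.85), and Slc2a7, a hexose carrier (4.41), in control. The nucleoside carrier Slc29a1 was lower in both (-2.24 and -3.40). Slc12a2, which brings in the chloride that crypts secrete, was at 37.5 and 131 CPM in Sox4cKO CD44minus, against 1390 and 1476 CPM in Sox4cKO CD44plus, and at 39.7 and 63.2 CPM in control CD44minus, against 2099 and 1773 CPM in control CD44plus, where it was lower (-5.23, SE 1.24, edgeR adjusted p = 0.0347). Among 20 regulators of enterocyte genes, Myc was lower in CD44minus in both genotypes (-3.92 and -3.28) and Creb3l3 higher in Sox4cKO (3.99).

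Between genotypes 0 genes of these lists passed in either gate. The medians in CD44minus were 0.70 for partners and pumps, 0.69 for other solute carriers and 0.92 for regulators, beside 0.19 over all genes. In CD44plus they were -0.075, 0.022 and -0.055. Of the genes with the highest mean level, Hnf4a, a nuclear receptor that acts on many enterocyte genes, was at 877 and 734 CPM in Sox4cKO CD44plus, against 939 and 778 CPM in control CD44plus, with overlap. Slc12a2 was at 1390 and 1476 CPM in Sox4cKO, against 2099 and 1773 CPM in control, without overlap.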

How the data were processed

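Total RNA of 50000 sorted cells per library was made into libraries with a strand-marking kit for small inputs, per the labels' protocols. Each deposited table gives 1 library's read counts by gene symbol, not normalized, and its 5 closing HTSeq lines were left out. HTSeq 0.6.1p1, STAR 2.2.5b, the build mm10, Trimmomatic 0.36 and bcl2fastq 2.17.4 are listed in the submitters' processing notes. The strand setting of the counting and the annotation are not given in the sources used here, so members that share exons with genes on the other strand are uncertain. Of the uniquely placed reads, 64.6 to 96.6% were counted to no gene.

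From the counts, edgeR 4.0.16 (R 4.3.3) fitted 4 groups in all 8 libraries with the quasi-likelihood test, after filterByExpr with a minimum count of 10 and TMM scaling. P-values were adjusted by Benjamini-Hochberg over the 20427 genes tested, with a threshold of 0.05, in 5 comparisons. Intervals are of 95%. Alternatives were DESeq2 1.42.0, limma 3.58.1 (voom, animal as a random block), other scalings, no filter, fixed blocks, subtraction of background, subsets of libraries and leaving out each library. Scaling to Epcam, and subtraction of background with scaling to totals, were added after the data were seen. RPKM used GENCODE exon lengths on GRCm38 (21732 of 23366 symbols matched, and 1273 more by a RefSeq synonym). Background was taken from 1433 receptor genes per kilobase of coding sequence (1550 kilobases in all), an upper estimate if reads on UTRs are counted too. The annotated exon length of these genes is 3.45 times their coding length.

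Replicate numbers pair the gates, since the animal number in the table names is the same for both gates of a replicate. Deviations from the group means correlated across genes at 0.526 between the gates in Sox4cKO and 0.103 in control. Sox4cKO and control libraries of 1 number share only the number, though their deviations correlated at 0.6 in CD44minus and 0.275 in CD44plus. Replicates are separate animals by the numbers in the table names. Their counts differed by 7.05 to 54.1 times the counting variance, so none is the same library sequenced again. That figure cannot tell a second library of the same cells from a library of another animal. The floor of 3 counts covers counting error only, as the tables record no molecular identifiers. The intervals of the fits also take in the spread between replicates.

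The 35 members, the lists and the rules were chosen with earlier results of these data known. All members are named. Of other lists, up to 3 genes per comparison and direction past the threshold are named, and where 0 passed, genes of the highest mean CPM. Some genes of these lists are not reported here.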

Additional observations from a re-analysis of the deposited data

How the results depend on the processing

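With 2 libraries a group, calls depend on the spread that the fit takes in. Higher members in Sox4cKO CD44minus over CD44plus were 15 with all libraries, 25 by upper quartile scaling, 25 by totals, 27 by DESeq2, 23 after subtraction of background, 25 with that and totals, 0 with the Sox4cKO libraries alone, and 0 to 31 when a library was left out. Lower members were 2 by totals, 2 after subtraction of background, alone or with totals, 1 with the replicate block by animal, and 0 to 3 when a library was left out, and the median was 1.60 to 3.69. Of all genes, 0.925% were higher with all libraries, and 2.82% by upper quartile, 3.61% by totals, 5.12% by DESeq2, 2.22% after subtraction of background and 4.02% with that and totals. The shares of all genes called lower were 1.65% with all libraries, 6.39% by totals and 3.95% with the block by animal. After subtraction of background they were 7.89%, and 7.74% with totals too. In control the 9 higher members were 14 by RLE, 24 by upper quartile, 26 by totals, 16 without the filter, 24 by DESeq2, 19 by limma-voom and 18 by edgeR with the replicate block by animal, 24 after subtraction of background and 25 with totals, 22 scaled to Epcam, 27 with the control libraries alone, and 0 to 26 when a library was left out. Lower members were 2 by totals, 2 with the block, 2 after subtraction of background in both forms, 3 with the control libraries alone and 0 to 3 when a library was left out. Higher genes of all in control were 0.445% with all libraries, 0.862% by RLE, 2.47% by upper quartile, 3.29% by totals, 0.987% without the filter, 5.19% by DESeq2, 6.05% and 10.5% with the block by limma-voom and edgeR, 2.34% after subtraction of background, 3.86% with totals, 3.14% scaled to Epcam and 30.4% with the control libraries alone. Lower genes of all in control were 2.01% with all libraries, 6.99% by totals, 7.37% with the block in edgeR and 24.4% with the control libraries alone. Subtraction of background gave 8.93% lower, and 8.68% with totals too. The control median was 3.28 by upper quartile, 3.42 scaled to Epcam and 1.98 to 2.78 when a library was left out. Other scalings moved the median of all genes too. Relative to it the members' median stayed at 1.95 to 2.85 in Sox4cKO and 2.15 to 3.10 in control over all settings that kept 8 libraries or 1 genotype.

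Some members turned in sign. When a library was left out in Sox4cKO, Slc3a2 was -0.64 to 1.93, Slc1a1 -0.77 to 1.27, Slc28a2 -0.029 to 0.98 and Slc22a5 -0.61 to 2.17, each lowest without CD44minus replicate 2. In control, Slc28a2 was 0.21 by RLE, 0.21 by DESeq2, 0.70 by upper quartile, 0.41 by totals, 0.21 after subtraction of background, 0.41 with totals, 0.81 scaled to Epcam, 0.12 with the control libraries alone, and -0.57 to 0.24 when a library was left out, 0.087 of them without CD44plus replicate 2. Slc1a1 was 0.29 by upper quartile, 0.043 by totals and 0.48 scaled to Epcam. Slc22a5 was -0.0015 with the replicate block by animal and -0.55 to 0.51 when a library was left out, and Slc11a2 -0.033 to 0.61.

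Between genotypes 0 members were called under any setting, except 27 higher in CD44minus without Sox4cKO CD44minus replicate 1, which also gave 1 call of the difference between gates (Slc22a5). The CD44plus median was -0.18 to 0.44 when a library was left out, and Slc9a3 -0.16 to 1.57, lowest without Sox4cKO CD44plus replicate 1. The CD44minus median was -0.43 to 1.41 when a library was left out and -0.054 scaled to Epcam, and Slc51b -0.043 to 2.17, lowest without Sox4cKO CD44minus replicate 2. The median of the difference between gates was -0.089 by upper quartile, -0.15 by totals, -0.15 after subtraction of background, -0.056 with totals, -0.45 scaled to Epcam and -0.77 to 1.16 when a library was left out. The replicate block by number, which is shared between genotypes without a shared animal, gave medians of 0.19 in CD44plus and 0.77 in CD44minus with 0 members called. The cause of these shifts was not tested. Depth limits the CD44minus gate most, where 3 reads are 0.431 to 3.39 CPM of gene counts.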
